A study of Homo sapiens with 6 samples.

Results

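The enzymes that cut the extracellular matrix and the proteins that hold them in check were described in RNA sequencing libraries of an ovarian cancer cell line. The set holds 48 genes of the 58735 entries in the gene table, chosen by name: 13 matrix metalloproteinases (MMPs), 4 metalloprotease inhibitors (TIMP1, TIMP2, TIMP3 and RECK), 10 ADAM and ADAMTS proteases, 5 genes of the plasminogen system, 10 further serpins, and 6 serine proteases or inhibitors of them, most of which act at the cell membrane. All 48 names were found. The choice rule uses names and no measured value, but the list was drawn up with earlier results of these data known.

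The study looked for genes whose transcripts change when ovarian cancer stem-like cells differentiate. The libraries carry the cell line name SKOV3, a human ovarian carcinoma line, and no treatment. Floating spheres (titled stem cells, 3 libraries) were grown in ultra-low-attachment plates without serum, in DMEM/F12 with B27, to which the methods add EGF, bFGF and insulin. Sphere-differentiated cells (titled adherent cells, 3 libraries) were such spheres moved to serum-containing DMEM in plates to which they attached. Stem-like state, serum, growth factors and attachment therefore changed together and cannot be told apart, and the spheres stand for stem cells only as far as sphere culture enriches them.

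MMPs are zinc enzymes that cleave collagens and other matrix proteins, and they are made as inactive precursors. TIMPs bind their active sites, while serpins trap serine proteases such as the plasminogen activators, which turn plasminogen into plasmin, itself able to cleave matrix and to activate MMP precursors. In ovarian cancer these systems are known for their part in invasion and in the attachment of floating cell clusters to the peritoneum.

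Promoter sequences are shown for TIMP1 and SERPINE2, which had the highest level and the largest fitted log2 fold change of the set (on log2(FPKM + 0.5)), and for SERPINB1, SERPINB9 and SERPINB6, which lie close together on chromosome 6 and moved differently. The letters are the 250 bases before a RefSeq transcript start on GRCh38.p14, in lower case, with the GC box (GGGCGG or its reverse complement CCGCCC) in capitals, as are the CCAAT box (CCAAT or, on the other strand, ATTGG) and the TATA box (TATAAA). TIMP1 is given at chrX:47582186-47582435 on the plus strand, and the others on the minus strand: SERPINE2 at chr2:224031479-224031728, SERPINB1 at chr6:2841864-2842113, SERPINB9 at chr6:2903310-2903559 and SERPINB6 at chr6:2971568-2971817.
TIMP1: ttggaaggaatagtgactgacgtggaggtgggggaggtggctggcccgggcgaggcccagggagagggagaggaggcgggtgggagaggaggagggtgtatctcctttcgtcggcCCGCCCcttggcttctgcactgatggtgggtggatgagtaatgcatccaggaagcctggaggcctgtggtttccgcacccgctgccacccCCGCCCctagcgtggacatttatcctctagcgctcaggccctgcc
SERPINE2: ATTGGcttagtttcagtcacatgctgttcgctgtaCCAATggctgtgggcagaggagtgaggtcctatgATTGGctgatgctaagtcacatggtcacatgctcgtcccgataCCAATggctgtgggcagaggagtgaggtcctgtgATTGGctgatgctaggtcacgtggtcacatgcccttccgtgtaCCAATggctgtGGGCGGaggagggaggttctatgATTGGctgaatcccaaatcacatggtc
SERPINB1: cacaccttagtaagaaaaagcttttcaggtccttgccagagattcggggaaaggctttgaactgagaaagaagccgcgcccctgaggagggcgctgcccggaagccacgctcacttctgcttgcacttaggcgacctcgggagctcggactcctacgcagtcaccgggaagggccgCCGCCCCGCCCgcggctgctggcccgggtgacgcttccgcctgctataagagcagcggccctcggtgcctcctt
SERPINB9: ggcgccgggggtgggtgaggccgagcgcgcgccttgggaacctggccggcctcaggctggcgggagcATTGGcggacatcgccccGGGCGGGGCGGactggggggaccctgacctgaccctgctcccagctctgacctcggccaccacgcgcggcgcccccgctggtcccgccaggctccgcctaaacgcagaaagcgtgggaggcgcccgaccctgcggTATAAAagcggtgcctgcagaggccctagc
SERPINB6: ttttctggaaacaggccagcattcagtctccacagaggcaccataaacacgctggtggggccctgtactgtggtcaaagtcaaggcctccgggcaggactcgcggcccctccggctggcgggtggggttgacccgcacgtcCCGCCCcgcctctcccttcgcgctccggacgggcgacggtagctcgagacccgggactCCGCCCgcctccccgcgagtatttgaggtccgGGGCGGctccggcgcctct

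The SERPINE2 window, the first of 2 for this gene, held 7 CCAAT boxes in alternating direction, and 7 of 35116 windows in the RefSeq table (0.0199%) held at least as many. In this window the stretch from CCAAT to the next ATTGG recurs nearly unchanged, so the matches lie in a repeat and are not independent of each other. The CCAAT box was searched after this sequence had been seen. SERPINE2 is annotated from 223975112 to 224039319 on the minus strand. The printed window therefore lies inside the gene, before an internal transcript start and not at the outermost start. The other SERPINE2 window is not shown. The SERPINB6 window also lies inside its gene, which is annotated up to 2972165. The TIMP1 and SERPINB1 windows lie partly inside their genes, which are annotated from 47582313 on the plus strand and up to 2842006 on the minus strand. The SERPINB9 window lies outside its gene, which is annotated up to 2903280. GC boxes numbered 2 in TIMP1, 1 in SERPINE2, 2 in SERPINB1, 2 in SERPINB9 and 3 in SERPINB6 (the first of 4 windows of that gene), some of them overlapping. SERPINB9 alone among these 5 windows held TATAAA, 30 bases before the start. RefSeq windows matched 31 of the 48 members. A GC box stood in a window of 21 of them (67.7%) and in 42.6% of all windows, a CCAAT box in 12 (38.7%) and in 32.0% of all windows, and TATAAA in 6 (19.4%) and in 6.80%. The AP-1 element, TGAGTCA or TGACTCA, stood in windows of MMP7, PLAUR, SERPINB7 and SERPINB8 (12.9% of the matched members, against 4.20% of all windows). Only these exact letters were searched, so close variants, such as TGAGTAA in the printed TIMP1 window, were not counted. MMP1, MMP3, MMP9 and MMP13 were among the members without a window. The TEAD motif, GGAATG or CATTCC, stood in a window of ADAMTS6 alone (3.23%, against 11.9%). Members had up to 4 windows each, so their shares are not matched in number of windows to the share over all, and a match is a description of letters only.

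Levels are FPKM, fragments per kilobase of exons scaled to the size of each library. Each library held 15877501 to 16376331 recovered fragments in floating spheres and 14725462 to 16263136 in sphere-differentiated cells. The libraries went against the cell line name in part. SKOV3 is known for an amplified ERBB2 and a deleted CDKN2A, but ERBB2 was at 6.56 to 9.47 FPKM in floating spheres and at 8.01 to 10.2 FPKM in sphere-differentiated cells, and CDKN2A was at 55.0 to 89.3 FPKM in floating spheres and 24.9 to 31.7 FPKM in sphere-differentiated cells. Keratins marked all 6 libraries as epithelial (KRT18 at 46.5 to 63.7 FPKM in floating spheres and 108 to 114 FPKM in sphere-differentiated cells), while WT1, an ovarian serous marker, was at 0 and MUC16, which encodes the antigen CA125, was under 0.5 FPKM in every library. The 10 epithelial markers summed to 237 to 535 FPKM in floating spheres and 750 to 837 FPKM in sphere-differentiated cells. KRT7 fell (mean 148 FPKM in floating spheres, against 562 FPKM in sphere-differentiated cells; limma adjusted p = 0.0114), as did KRT18 (adjusted p = 0.00326) and the adhesion protein EPCAM (mean 0.885 FPKM in floating spheres, against 6.51 FPKM in sphere-differentiated cells; adjusted p = 0.000497), so epithelial markers moved with the state of the cells. Of markers of other cells, 4 of 6 for fibroblasts, 5 of 6 for leukocytes (PTPRC at 0), 4 of 5 for endothelium (CDH5 at 0) and 3 of 4 for mesothelium were under 0.5 FPKM in every library. The summed markers came to 3.49 to 5.30 FPKM in floating spheres and 2.19 to 2.37 FPKM in sphere-differentiated cells for fibroblasts. For endothelium they came to 4.67 to 7.61 FPKM in floating spheres and 2.56 to 3.18 FPKM in sphere-differentiated cells, mostly PECAM1. For leukocytes they came to 8.55 to 15.9 FPKM in floating spheres and 8.37 to 11.5 FPKM in sphere-differentiated cells, mostly CD14. For mesothelium they came to 18.8 to 24.7 FPKM in floating spheres and 10.2 to 16.2 FPKM in sphere-differentiated cells, mostly MSLN, and the part of other cells, or of the epithelial markers, in the results was not tested.

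Across the set, a few inhibitors and a few proteases were higher in floating spheres, and few genes were lower. Of the 48 members, 33 reached a mean of 0.5 FPKM and were tested, 9 of them rose, 2 fell and 22 did not pass the threshold (limma, adjusted p under 0.05 over 15719 genes). That is 33.3% called, against 33.6% of all genes tested. Rises made up 27.3% of the members tested, against 15.8% of all genes, and falls 6.06%, against 17.8%. The median log2 fold change of the 33 was 0.37, and that of all genes tested was 0.0032. The 3 floating sphere values did not overlap the 3 sphere-differentiated values for 15 of the 33 (45.5%, against 51.6% of all genes), 12 on the higher side (all genes, 24.3%) and 3 on the lower side (all genes, 27.2%). At the study's own threshold (p under 0.05 before adjustment, with fitted changes beyond 0.5 either way on the log2 scale), 11 of the 33 rose and 2 fell, where 39.4% of all genes were called, 19.5% higher and 19.9% lower. In bulk RNA, fewer cells that express a gene and less RNA per cell cannot be told apart.

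**Figure D1:**
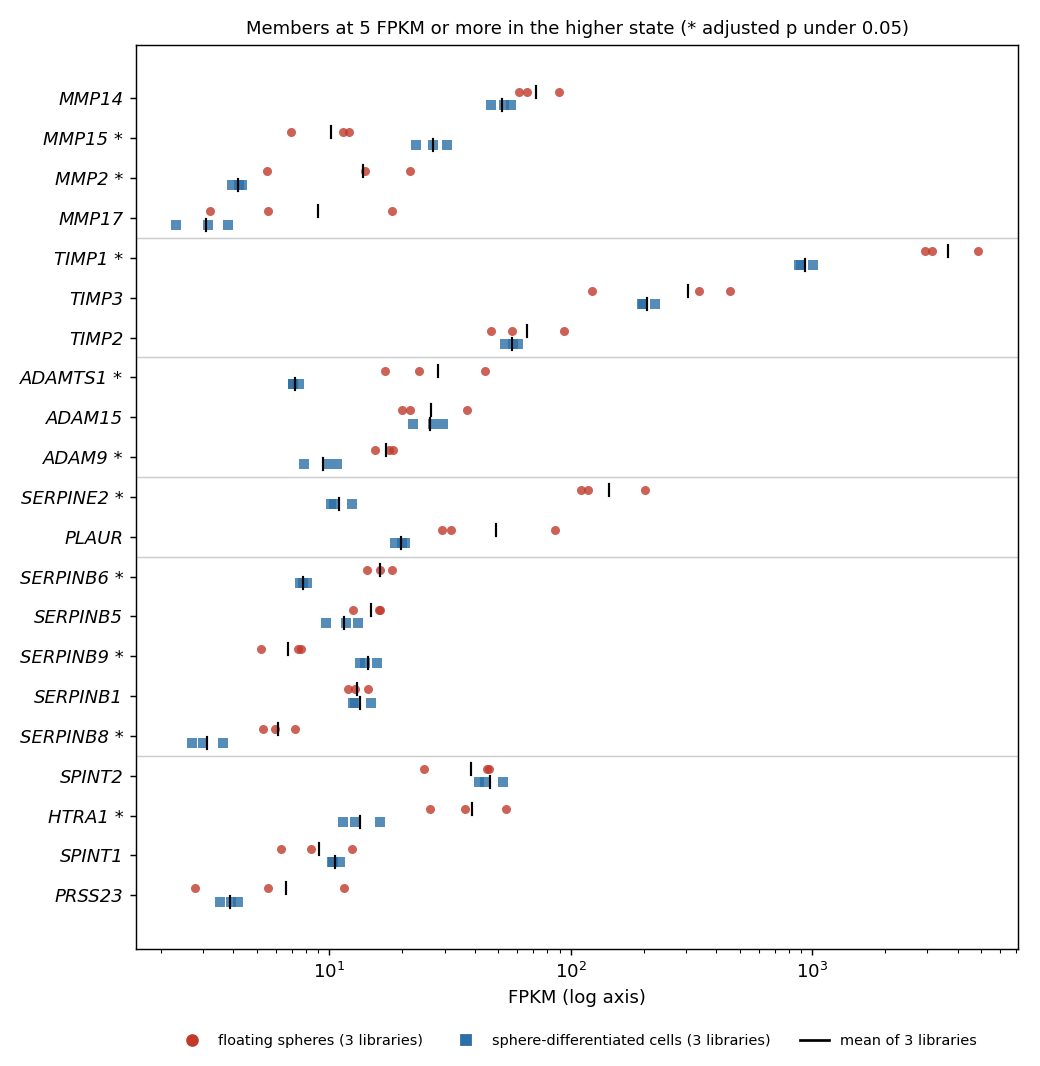
FPKM on a log axis of the 21 members that reached a mean of 5 FPKM in the higher state, in 3 floating sphere libraries (circles) and 3 sphere-differentiated libraries (squares), with a bar at each mean and an asterisk at an adjusted p under 0.05. TIMP1 lies highest, at 2944 to 4874 FPKM in floating spheres, and SERPINE2 shows the widest gap between the states, 110.0 to 202 FPKM in floating spheres and 10.1 to 12.4 FPKM in sphere-differentiated cells.

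Among the MMPs, the membrane-anchored enzymes MMP14 and MMP15 were made in both states, and MMP15 was lower in floating spheres. MMP14, which cleaves fibrillar collagen at the cell surface and activates the MMP2 precursor, was the most abundant MMP of both states. Its level was 60.7, 89.0 and 65.9 FPKM in floating spheres, against 56.7, 46.6 and 52.9 FPKM in sphere-differentiated cells. The values did not overlap, but the log2 fold change of 0.45 (SE 0.18) did not pass the threshold (limma, adjusted p = 0.0945).

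MMP15, a close membrane-anchored relative of MMP14, fell. Its level was 12.0, 11.3 and 6.94 FPKM in floating spheres, against 30.7, 22.8 and 26.9 FPKM in sphere-differentiated cells. Every floating sphere library lay below every sphere-differentiated library, and the means were 10.1 ± 2.76 FPKM in floating spheres and 26.8 ± 3.93 FPKM in sphere-differentiated cells (SD, n = 3 each), a log2 fold change of -1.39 (SE 0.23, limma adjusted p = 0.00458). MMP14 transcripts outnumbered those of MMP15, per length, 5.05, 7.84 and 9.50 times in floating spheres and 1.85, 2.04 and 1.97 times in sphere-differentiated cells. MMP15 made up 14.2%, 7.63% and 7.24% of the summed FPKM of the 13 MMPs in floating spheres, against 31.4%, 29.2% and 30.1% in sphere-differentiated cells. MMP14 made up 71.5%, 59.8% and 68.8% of that sum in floating spheres and 58.1%, 59.7% and 59.2% in sphere-differentiated cells.

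MMP2, the secreted gelatinase that MMP14 activates, rose, with a wide spread among spheres. Its level was 5.52, 21.6 and 14.1 FPKM in floating spheres, against 4.35, 4.21 and 3.95 FPKM in sphere-differentiated cells. The states did not overlap, although the lowest sphere library came close to the sphere-differentiated ones. The means were 13.7 ± 8.03 FPKM in floating spheres and 4.17 ± 0.202 FPKM in sphere-differentiated cells (SD, n = 3 each), and the log2 fold change was 1.42 (SE 0.42, limma adjusted p = 0.0375). The call was lost without floating sphere replicate 2 (adjusted p = 0.0746), without replicate 3 (adjusted p = 0.102), and without sphere-differentiated replicates 1, 2 or 3 (adjusted p = 0.0864, 0.108 and 0.1004).

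MMP17, a membrane enzyme held by a lipid anchor, was at 3.19, 18.1 and 5.54 FPKM in floating spheres and at 3.80, 2.32 and 3.14 FPKM in sphere-differentiated cells. The states overlapped, since the first sphere library lay inside the range of the sphere-differentiated libraries (log2 fold change 1.08, limma adjusted p = 0.157). MMP11, called stromelysin-3, averaged 2.38 ± 1.66 FPKM in floating spheres, against 0.641 ± 0.149 FPKM in sphere-differentiated cells, with no overlap (SD, n = 3 each; adjusted p = 0.0611). MMP11 passed without floating sphere replicate 1 (adjusted p = 0.0118), and so did MMP17 (adjusted p = 0.0425). The interstitial collagenase MMP1 spanned 0.568 to 3.08 FPKM in floating spheres and 0.401 to 0.779 FPKM in sphere-differentiated cells. The membrane-type MMP24 spanned 0.351 to 0.472 FPKM in floating spheres and 0.426 to 0.826 FPKM in sphere-differentiated cells, and 21.8% of its exon bases are shared with other genes. MMP1 did not pass the threshold with all libraries (adjusted p = 0.134) and passed without floating sphere replicate 3 (adjusted p = 0.0248).

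MMP3, MMP7, MMP9, MMP10, MMP13 and MMP19 were under the test's minimum level, at no more than 0.419 FPKM in any library. MMP9, the other gelatinase (18.4% of exon bases shared), had 2, 8 and 8 fragments in floating spheres and 2, 7 and 15 fragments in sphere-differentiated cells. MMP7, known in ovarian cancer cells, had 3 fragments in floating sphere replicate 2 and none elsewhere. On chromosome 11, 9 MMP genes lie within 435 kb (hg38, chr11:102520508-102955734), and 8 of them were under 0.5 FPKM in all 6 libraries, MMP1 being the exception.

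TIMP1 was the most abundant member and rose further in floating spheres. It inhibits most secreted MMPs and is a weak inhibitor of MMP14. Its level was 3134, 4874 and 2944 FPKM in floating spheres, against 899.7, 1008 and 883 FPKM in sphere-differentiated cells. Every sphere library lay well above every sphere-differentiated library. The means were 3651 ± 1064 FPKM in floating spheres and 930.2 ± 68.0 FPKM in sphere-differentiated cells (SD, n = 3 each), and the log2 fold change was 1.94 (SE 0.25, limma adjusted p = 0.00223). The call was lost where no minimum level was set on the genes tested (adjusted p = 0.135).

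The other inhibitors of the family did not pass the threshold. TIMP3, which binds to the matrix and also inhibits ADAM17, was at 122, 456 and 338 FPKM in floating spheres and at 199, 223 and 198 FPKM in sphere-differentiated cells. The sphere libraries lay on both sides of the sphere-differentiated ones (log2 fold change 0.37, limma adjusted p = 0.557), and TIMP3 passed without floating sphere replicate 1 (log2 fold change 0.93, adjusted p = 0.0120). TIMP2, which inhibits MMP14 and also bridges it to the MMP2 precursor, was at 46.8, 93.2 and 57.2 FPKM in floating spheres and at 57.7, 60.4 and 53.3 FPKM in sphere-differentiated cells, with overlap (log2 fold change 0.14, adjusted p = 0.689). Other genes share 10.0% of its exon bases. RECK, a membrane-anchored protein that restrains several MMPs, was low, at 0.454 to 1.1002 FPKM in floating spheres and 0.575 to 0.874 FPKM in sphere-differentiated cells.

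Summed over TIMP1, TIMP2 and TIMP3, the inhibitors came to 3302, 5423 and 3340 FPKM in floating spheres, against 1156, 1292 and 1134 FPKM in sphere-differentiated cells. The 13 MMPs summed to 84.9, 149 and 95.9 FPKM in floating spheres, against 97.7, 78.1 and 89.4 FPKM in sphere-differentiated cells, and here the states overlapped. The TIMP sum was thus 38.9, 36.5 and 34.8 times the MMP sum in floating spheres and 11.8, 16.5 and 12.7 times in sphere-differentiated cells. Without TIMP1 the ratio was 1.99, 3.70 and 4.12 in floating spheres and 2.63, 3.63 and 2.81 in sphere-differentiated cells, with overlap. TIMP1 made up 94.9%, 89.9% and 88.2% of the TIMP sum in floating spheres and 77.8%, 78.0% and 77.9% in sphere-differentiated cells. MMP14 over TIMP2, the pair that meets at the cell surface, was 1.30, 0.954 and 1.15 in floating spheres and 0.984, 0.772 and 0.992 in sphere-differentiated cells, which overlapped. These ratios are of transcripts per length, not of proteins or activity.

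**Figure D2:**
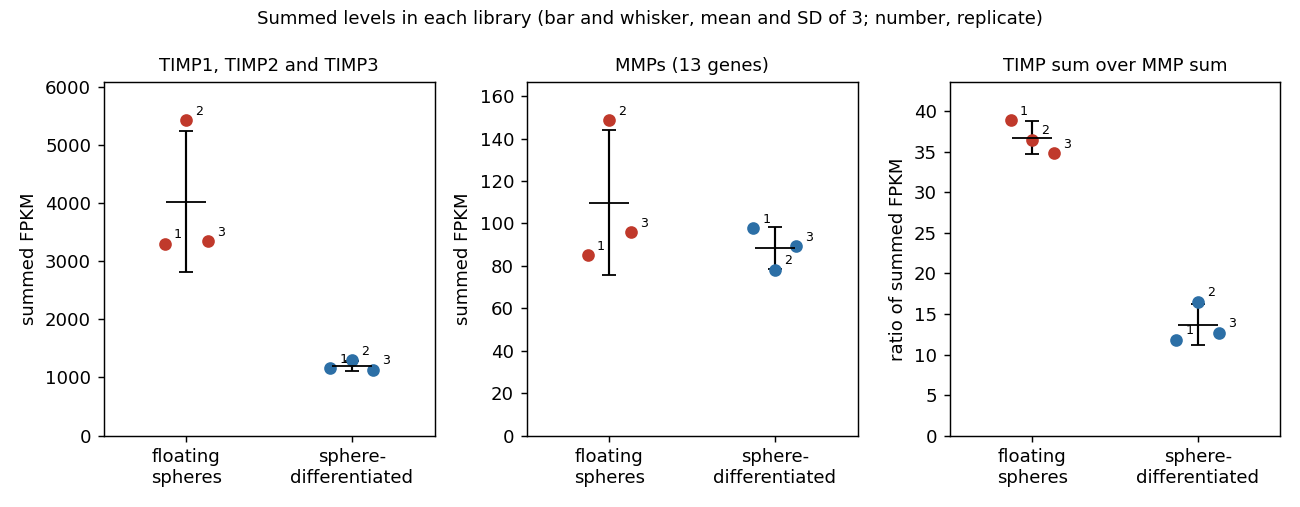
Summed FPKM of TIMP1, TIMP2 and TIMP3 (left), of the 13 MMPs (middle) and the ratio of these sums (right) in each library, floating spheres left of sphere-differentiated cells, numbered by replicate, with mean and SD of 3. The TIMP sums and the ratios separate the states (ratios of 34.8 to 38.9 in floating spheres and 11.8 to 16.5 in sphere-differentiated cells), while the MMP sums overlap.

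Of the 6 ADAM and ADAMTS proteases tested, 2 rose and 4 did not pass the threshold (limma), which is 33.3% called, against 33.6% of all genes tested. ADAMTS1, a secreted protease that cleaves versican and aggrecan, was at 23.5, 44.0 and 17.1 FPKM in floating spheres, against 7.04, 7.45 and 7.04 FPKM in sphere-differentiated cells. The sphere-differentiated libraries lay close together and below every sphere library. The means were 28.2 ± 14.1 FPKM in floating spheres and 7.18 ± 0.240 FPKM in sphere-differentiated cells (SD, n = 3 each), with a log2 fold change of 1.79 (SE 0.31, limma adjusted p = 0.00567).

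ADAM9, a membrane sheddase, was at 18.4, 17.7 and 15.4 FPKM in floating spheres, against 7.87, 10.7 and 9.74 FPKM in sphere-differentiated cells, again with no overlap. Its means were 17.2 ± 1.59 FPKM in floating spheres and 9.44 ± 1.45 FPKM in sphere-differentiated cells (SD, n = 3 each), a log2 fold change of 0.84 (SE 0.16, adjusted p = 0.00717). ADAM15, a membrane protease with an integrin-binding domain, was at 37.2, 20.003 and 21.7 FPKM in floating spheres and at 29.5, 22.2 and 27.0 FPKM in sphere-differentiated cells. These ranges overlapped, and the log2 fold change of -0.04 had a 95% interval of -0.62 to 0.54 (adjusted p = 0.914).

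ADAM8, ADAM12 and ADAMTS10 were low and did not pass the threshold, at 0.517 to 2.41 FPKM over the floating spheres and 0.648 to 1.24 FPKM over the sphere-differentiated libraries. ADAM8 did not overlap between the states and lay lower in floating spheres (0.704 ± 0.173 FPKM in floating spheres and 1.06 ± 0.163 FPKM in sphere-differentiated cells, SD, n = 3 each; adjusted p = 0.222). ADAM19, ADAMTS6, ADAMTS9 and ADAMTS15 were under the minimum and not tested. Among them ADAMTS15, a versican-cleaving protease, was at 0.116, 0.108 and 0.187 FPKM in floating spheres and at 0.490, 0.356 and 0.568 FPKM in sphere-differentiated cells, on 10 to 18 fragments in floating spheres and 29 to 53 in sphere-differentiated cells.

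**Figure D3:**
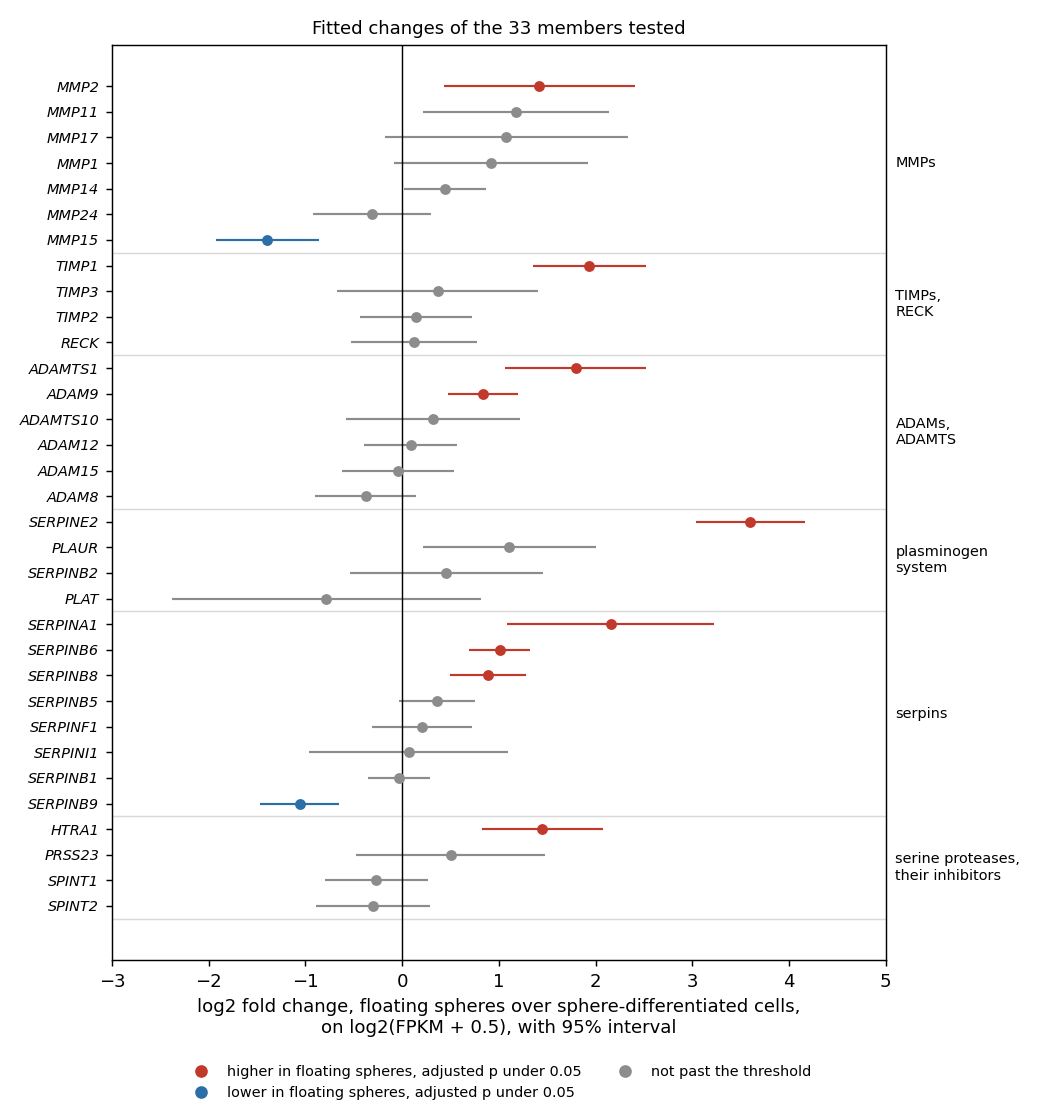
Fitted log2 fold change, floating spheres over sphere-differentiated cells, of the 33 members tested, with 95% intervals and grouped by role, in red where higher and blue where lower at an adjusted p under 0.05 and in grey otherwise. SERPINE2 lies farthest right at 3.60, the 2 blue genes are MMP15 (-1.39) and SERPINB9 (-1.06), and 22 genes are grey.

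In the plasminogen system, the inhibitor SERPINE2 had the largest fitted log2 fold change of the set, while its ratio of means, 13.1, was below the 14.5 of the low-level SERPINA1. SERPINE2, also called protease nexin, traps thrombin, urokinase and plasmin at the cell surface. Its level was 118, 202 and 110.0 FPKM in floating spheres, against 10.1, 12.4 and 10.4 FPKM in sphere-differentiated cells. The lowest sphere library lay far above the highest sphere-differentiated library. The means were 143 ± 51.0 FPKM in floating spheres and 10.97 ± 1.23 FPKM in sphere-differentiated cells (SD, n = 3 each), with a log2 fold change of 3.60 (SE 0.24, limma adjusted p = 0.000369). By level among the 48 members SERPINE2 was at rank 3 in floating spheres, against rank 13 in sphere-differentiated cells.

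PLAUR, the receptor that holds urokinase at the cell surface, was at 32.0, 86.2 and 29.1 FPKM in floating spheres, against 20.6, 18.7 and 20.01 FPKM in sphere-differentiated cells. There was no overlap, but the log2 fold change of 1.11 (SE 0.38) did not pass the threshold (limma, adjusted p = 0.0596). PLAUR passed without floating sphere replicate 2 (log2 fold change 0.61, adjusted p = 0.0120) and without replicate 3 (adjusted p = 0.0440). Its ligand PLAU, urokinase itself, was under the minimum level, with 3, 24 and 10 fragments in floating spheres and 1, 3 and 0 fragments in sphere-differentiated cells, and 31.1% of its exons overlap C10orf55, so these fragments may belong to either gene.

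PLAT, the tissue plasminogen activator, was at 0.189, 5.59 and 1.41 FPKM in floating spheres and at 2.90, 3.26 and 2.71 FPKM in sphere-differentiated cells. Sphere replicate 2 lay above the sphere-differentiated libraries and the others below (adjusted p = 0.403), and without replicate 2 the log2 fold change was -1.59 (limma, adjusted p = 0.0323). SERPINB2, an inhibitor of plasminogen activators, spanned 0.321 to 2.11 FPKM in floating spheres and 0.529 to 0.884 FPKM in sphere-differentiated cells. SERPINB2 passed only without floating sphere replicate 3 (adjusted p = 0.0359), and 19.9% of its exons overlap SERPINB10.

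The other serpins split by gene rather than by family: SERPINB6, SERPINB8 and SERPINA1 rose and SERPINB9 fell, with 4 of the 8 tested not past the threshold (limma). Rises made up 37.5% of the 8, against 15.8% of all genes tested, and falls 12.5%, against 17.8%. SERPINB6, an intracellular inhibitor of trypsin-like proteases and cathepsin G, was at 14.3, 16.2 and 18.1 FPKM in floating spheres, against 7.55, 7.75 and 8.05 FPKM in sphere-differentiated cells. The states were clearly apart, at means of 16.2 ± 1.92 FPKM in floating spheres and 7.79 ± 0.254 FPKM in sphere-differentiated cells (SD, n = 3 each), with a log2 fold change of 1.01 (SE 0.13, limma adjusted p = 0.00249).

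SERPINB9, the intracellular inhibitor of granzyme B, fell. Its level was 5.19, 7.41 and 7.59 FPKM in floating spheres, against 13.4, 15.8 and 14.1 FPKM in sphere-differentiated cells. No sphere library reached the sphere-differentiated range, and the means were 6.73 ± 1.34 FPKM in floating spheres and 14.4 ± 1.23 FPKM in sphere-differentiated cells (SD, n = 3 each), a log2 fold change of -1.06 (SE 0.17, limma adjusted p = 0.00460). SERPINB1, an inhibitor of neutrophil elastase, was at 12.0, 12.8 and 14.4 FPKM in floating spheres and at 12.7, 12.5 and 14.8 FPKM in sphere-differentiated cells. Those ranges overlapped, with a log2 fold change of -0.03 and a 95% interval of -0.35 to 0.29. These 3 serpins lie on the minus strand within 140 kb of chromosome 6 (hg38, chr6:2832332-2972165), in the order SERPINB1, SERPINB9, SERPINB6. Their promoter windows all hold GC boxes, as printed above.

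SERPINB8, which can inhibit furin, was at 7.23, 5.29 and 5.94 FPKM in floating spheres, against 2.69, 3.61 and 2.99 FPKM in sphere-differentiated cells. It did not overlap between the states (6.15 ± 0.989 FPKM in floating spheres and 3.10 ± 0.470 FPKM in sphere-differentiated cells, SD, n = 3 each), and its log2 fold change was 0.88 (SE 0.17, limma adjusted p = 0.00775). Of its exons, 10.7% overlap other genes. SERPINB5, called maspin, was at 16.1, 16.1 and 12.6 FPKM in floating spheres and at 9.65, 13.1 and 11.7 FPKM in sphere-differentiated cells, with overlap (log2 fold change 0.36, adjusted p = 0.132). Both lie in a group of 10 serpin B genes over 543 kb of chromosome 18 (hg38, chr18:63476761-64019779), of which 5 were under 0.5 FPKM in all libraries, SERPINB7 among them.

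SERPINA1, the blood inhibitor alpha-1-antitrypsin, rose at a low level, on 130, 539 and 150 fragments in floating spheres and 17, 18 and 18 fragments in sphere-differentiated cells. Its means were 3.37 ± 2.92 FPKM in floating spheres and 0.233 ± 0.0203 FPKM in sphere-differentiated cells (SD, n = 3 each), with a log2 fold change of 2.15 (SE 0.46, limma adjusted p = 0.0115). That value was 1.58 without floating sphere replicate 2, 3.07 with a pseudocount of 0.1, 2.91 on TPM and 3.53 with voom on recovered fragments, with the call kept in each, and the ratio of means was 14.5. SERPINA1 was the single gene of 9 in the chromosome 14 serpin A cluster that passed 0.5 FPKM in any library. SERPINA3 of the same cluster, antichymotrypsin, had no fragment in any library, and neither had SERPINB7, where 3 fragments would have stood for 0.0357 and 0.0679 FPKM in floating sphere replicate 1. SERPINF1, an inhibitor of vessel growth that does not inhibit proteases, spanned 1.24 to 2.30 FPKM in floating spheres and 1.34 to 1.72 FPKM in sphere-differentiated cells. SERPINI1, a neural inhibitor of tissue plasminogen activator, spanned 0.243 to 2.00 FPKM in floating spheres and 0.653 to 1.18 FPKM in sphere-differentiated cells.

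In the remaining group, HTRA1 rose. HTRA1, a secreted serine protease that cleaves fibronectin and other matrix proteins, was at 36.5, 53.9 and 26.1 FPKM in floating spheres, against 11.4, 16.2 and 12.7 FPKM in sphere-differentiated cells. Every sphere library was higher than every sphere-differentiated library. The means were 38.8 ± 14.05 FPKM in floating spheres and 13.4 ± 2.49 FPKM in sphere-differentiated cells (SD, n = 3 each), a log2 fold change of 1.45 (SE 0.27, limma adjusted p = 0.00704).

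The Kunitz inhibitors SPINT1 and SPINT2, which restrain membrane proteases such as matriptase, did not pass the threshold. SPINT1 was at 6.30, 12.4 and 8.41 FPKM in floating spheres and at 11.02, 10.3 and 10.4 FPKM in sphere-differentiated cells (log2 fold change -0.27, limma adjusted p = 0.394). Replicate 2 of the spheres lay above all sphere-differentiated libraries and the others below, and without it SPINT1 passed (log2 fold change -0.51, adjusted p = 0.0463). SPINT2 was at 45.9, 44.8 and 24.7 FPKM in floating spheres and at 52.5, 41.6 and 44.0 FPKM in sphere-differentiated cells, with overlap (log2 fold change -0.30, adjusted p = 0.381). Matriptase itself, ST14, and its partner prostasin, PRSS8, were under the minimum level, at no more than 0.265 FPKM. The secreted protease PRSS23, with 11.9% of its exon bases shared with FZD4, was at 5.54, 11.5 and 2.78 FPKM in floating spheres and at 4.20, 3.53 and 3.93 FPKM in sphere-differentiated cells, overlapping (log2 fold change 0.50, adjusted p = 0.382).

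Floating sphere replicate 2 stood apart for this set, and it was also the least alike of the sphere libraries over all genes tested. The log2 values of replicate 2 correlated at 0.928 with replicate 1 and 0.941 with replicate 3, and those of replicates 1 and 3 at 0.952. Replicate 2 was the highest of the 3 sphere libraries for 21 of the 33 members tested (63.6%), against 35.3% of all genes tested. Replicate 1 was highest for 8 members (24.2%, all genes 36.4%) and replicate 3 for 4 (12.1%, all genes 28.3%). PLAUR, MMP17 and SERPINA1 in replicate 2 were 2.82, 4.15 and 3.99 times the mean of the other sphere libraries, whereas SERPINB6 was 1.00 times and SERPINB8 0.803 times. Replicate 2 also had the smallest mitochondrial share of fragments among spheres (1.90%, the others 2.93% and 2.57%), the most genes at 1 FPKM or more (13857, the others 13143 and 13335) and the lowest KRT7 (66.7 FPKM, the others 275 and 101 FPKM). Their part in the members' values was not tested. Without replicate 2, 9 of the 33 members rose and 4 fell at the same threshold (limma). Of all 15719 genes tested, 2496 rose and 2694 fell in that setting. PLAT and SPINT1 were the added falls among members, MMP2 the rise that was lost and PLAUR the rise gained.

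**Figure D4:**
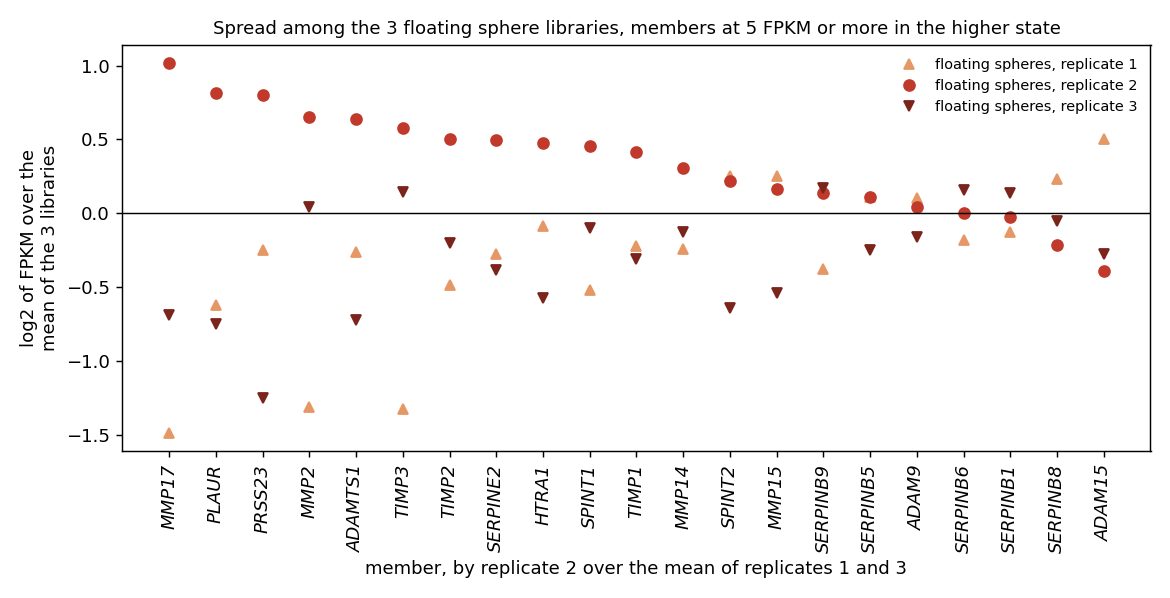
Level of 21 members in each floating sphere library, as log2 of FPKM over the mean of the 3 libraries, ordered by replicate 2 over the mean of replicates 1 and 3. MMP17, PLAUR and PRSS23 lie at the left, where replicate 2 is 4.15, 2.82 and 2.76 times the mean of the others, and ADAM15, where it is 0.680 times, lies at the right.

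Further genes of these systems, 127 in all and outside the 48, were counted by list. Of 51 tested, 22 rose, 5 fell and 24 did not pass (52.9% called, against 33.6% of all genes), with a median log2 fold change of 0.62. Rises made up 43.1% of the 51, against 15.8% of all genes tested, and falls 9.80%, against 17.8%. Membrane and secreted serine proteases and their inhibitors had 9 rises and 1 fall among 13 tested (76.9% called). Cathepsins and cystatins had 6 rises among 16 (37.5% called, near the share over all genes), and other ADAM and ADAMTS genes 3 rises and 2 falls among 8. Other MMP relatives had 2 rises and 1 fall among 4 tested and other plasminogen system genes 2 rises among 5. Of the 4 other serpins tested, 0 were called by limma and 0 by voom, and 1, SERPINB4, had an unadjusted p under 0.05, a gene whose reads can be shared with its near-identical copy SERPINB3.

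The further genes with the largest rises at 5 FPKM or more were PI3, PRSS21, S100A10 and CTSC. PI3, called elafin, an inhibitor of neutrophil elastase, was at 601, 849 and 1222 FPKM in floating spheres, against 113, 103 and 113 FPKM in sphere-differentiated cells, far apart (log2 fold change 2.96, SE 0.26, limma adjusted p = 0.000748). PRSS21, testisin, a membrane-anchored serine protease, was at 46.1, 42.5 and 33.3 FPKM in floating spheres, against 9.12, 6.20 and 7.32 FPKM in sphere-differentiated cells (log2 fold change 2.36, SE 0.19, adjusted p = 0.000535). S100A10, part of a cell-surface plasminogen receptor, was at 211, 255 and 192 FPKM in floating spheres, against 49.1, 46.0 and 48.8 FPKM in sphere-differentiated cells (log2 fold change 2.17, SE 0.15, adjusted p = 0.000383). For none of these did the states overlap. CTSC, cathepsin C, which activates serine proteases of immune cells, was at 27.2, 13.96 and 14.2 FPKM in floating spheres, against 3.59, 3.48 and 3.61 FPKM in sphere-differentiated cells (log2 fold change 2.16, SE 0.25, adjusted p = 0.00167).

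Falls at that level were TIMP4, ADAM17 and ECE1. TIMP4, the remaining TIMP, was at 2.64, 1.37 and 2.82 FPKM in floating spheres, against 6.47, 6.80 and 6.59 FPKM in sphere-differentiated cells, the opposite direction to TIMP1 (log2 fold change -1.40, SE 0.23, limma adjusted p = 0.00456). ADAM17, the sheddase that TIMP3 inhibits, was at 3.41, 5.98 and 4.45 FPKM in floating spheres, against 8.64, 10.3 and 8.96 FPKM in sphere-differentiated cells (log2 fold change -0.97, SE 0.20, adjusted p = 0.0103). Neither overlapped, and 10.3% of the exons of TIMP4 and 13.6% of those of ADAM17 overlap other genes. ECE1, which matures endothelin, was at 29.3, 33.6 and 35.8 FPKM in floating spheres, against 53.1, 47.0 and 51.7 FPKM in sphere-differentiated cells (log2 fold change -0.62, SE 0.14, adjusted p = 0.0133), and its call was lost without sphere-differentiated replicate 1 (adjusted p = 0.0560) or 3 (adjusted p = 0.0716).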

How the data were processed

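RNA of 3 floating sphere and 3 sphere-differentiated libraries was made into libraries with a NEBNext Ultra RNA kit and sequenced as paired ends on an Illumina instrument. Per the labels, the processing notes name hg38, featureCounts 1.5.0-p3 and DESeq2 1.20.0, and the methods name edgeR for testing. Aligner, annotation release and strandedness were not given in the sources used here. Whether reads of overlapping genes on opposite strands were told apart is therefore not known. The deposited table holds FPKM values that the authors computed per library. Titles were mapped to states as stem cells to floating spheres and adherent cells to sphere-differentiated cells.

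Names were matched to GENCODE 29 on hg38. For the 56923 entries with a unique name, FPKM times exon length gave whole fragments (within 0.01) at every value above 0. Such values numbered 22428 to 24405 per library. The recovered fragments are the depth given per library. They came to 96.2% (floating sphere replicate 3) to 103% (sphere-differentiated replicate 2) of the library total that the FPKM imply. The test was limma 3.58.1 (R 4.3.3) over genes whose mean reached 0.5 FPKM, on log2(FPKM + 0.5), a scale that understates the change of low genes, with an intensity trend, floating sphere minus sphere-differentiated, and Benjamini-Hochberg adjustment over all genes tested at 0.05. The labels do not say that replicates were separate cultures, so p-values measure the spread between these libraries, which may be technical. No pair of replicates was alike within sampling noise (chi-square per gene of at least 5.89).

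The members and gene lists were chosen with earlier results of these data known, so no set test and no adjustment over the list was made. Members at 5 FPKM or more in the higher state were given in every library, called members with mean, SD, SE and adjusted p, and the others by range. Further genes named were up to 4 per direction with the largest fitted change at that level; a gene that the rule also named is not reported here. Promoters came from RefSeq (GRCh38.p14), with the 50 bases after the start left out. Alternatives were other pseudocounts, filters and scalings, voom on recovered fragments, a replicate block, a GC content and length correction, the study's threshold (unadjusted p under 0.05, log2 fold change over 0.5 in size) and each library left out.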

Additional observations from a re-analysis of the deposited data

How the results depend on the processing

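Of the 11 called members, 9 kept direction and call under every alternative that gave a value. The others were MMP2, whose call was also lost with no filter on low values (adjusted p = 0.0995) and with the GC content and length correction (adjusted p = 0.0588), and TIMP1. With a minimum of 5 FPKM, a setting with fewer genes tested (7766), 1478 of all genes rose, and 14 further pathway genes rose and 2 fell. With each library left out in turn, rises and falls ranged over 1318 to 2496 and 1448 to 2827 of all genes, 8 to 12 and 2 to 4 of the members (4 without floating sphere replicate 2), and 14 to 25 and 2 to 6 of the further genes, with the lowest counts over all genes without sphere-differentiated replicate 3. Among members without a call, the log2 fold change changed sign for ADAM12 (-0.0257, quantile normalization), ADAM15 (0.00521, voom), SERPINB1 (0.00782, quantile normalization; 0.0162, voom; 0.102, GC content and length) and SERPINI1 (-0.0104, pseudocount 0.1; -0.0667, TPM; -0.0703, quantile normalization; -0.00797, voom). With a library left out, it ranged from -0.14 to 0.35 for TIMP2, -0.0227 to 0.93 for TIMP3, -0.0108 to 0.36 for RECK, -0.32 to 0.12 for ADAM15, -0.0688 to 0.67 for ADAMTS10, -0.10 to 0.0452 for SERPINB1 and -0.36 to 0.51 for SERPINI1. PLAUR passed with voom (adjusted p = 0.0266) and with a minimum of 5 FPKM (adjusted p = 0.0407), MMP11 with voom (adjusted p = 0.0447) and SERPINB5 with the GC content and length correction (adjusted p = 0.0234). The cause of these shifts was not tested. Replicate numbers did not pair the samples (correlations of same-numbered deviations of -0.02, -0.07 and -0.04), and a replicate block left 9 rises and 2 falls among members and 1994 and 2094 among all genes. Genes at a few fragments, such as PLAU and MMP9, are limited by depth.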
